A study of Mus musculus with 2 samples.

Results

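ATP-binding cassette (ABC) transporters were examined in total RNA from the adrenal gland of male B6CASTF1/J mice that were 36 days old. This strain is the F1 cross between C57BL/6J and CAST/EiJ. The members are the protein-coding genes whose symbol is Abc followed by a subfamily letter from a to g, a number and at most 1 further letter. This rule found 50 genes among 55536 annotated genes, of which 22015 are nuclear protein-coding genes. The series holds 1 group, for which no treatment is named, with 2 libraries, called replicate 1 and replicate 2 after their labels, each made from 300 ng of RNA after depletion of ribosomal RNA. There is no contrast between conditions, so levels, their spread and the differences between the libraries are given, without p-values. The labels conflict on whether the libraries come from separate animals: the biosample descriptions name a different male for each, while both library descriptions name the same male and both samples carry the same donor identifier. If they share an animal, the SD over the libraries is technical only.

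ABC proteins bind and hydrolyse ATP through paired nucleotide-binding domains, and most of them couple this to moving lipids, drugs, conjugates, peptides or metals across a membrane. The E and F subfamilies lack membrane-spanning domains and act on ribosomes and translation instead. In the adrenal gland, steroid-producing cells take up and store large amounts of cholesterol, so the lipid pumps are of interest there, and mouse Abcb1b, one of a pair of mouse P-glycoprotein genes, is known for its abundance in this organ.

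The gene tables held 35511291 gene counts in replicate 1 and 30169338 in replicate 2. All 10 markers of the adrenal cortex and of chromaffin cells, such as Star and Th, were above 100 TPM on average (TPM is a level per transcript length, scaled to a sum of 1000000 in each library). The 5 exocrine pancreas markers summed to 0.20 TPM in replicate 1 and 6594 TPM in replicate 2, with Cpa1 and Pnlip at 0 counts in replicate 1. The 4 islet markers, all at 0 counts in replicate 1, summed to 89.7 TPM in replicate 2. The 5 liver markers summed to 15.2 TPM in replicate 1 and 95.2 TPM in replicate 2. Kidney tubule and testis markers stayed under 0.25 TPM in sum in both libraries. Replicate 2 thus stands apart by pancreas, islet and liver transcripts. Members at least 2-fold higher in replicate 2 are given beside these values below. With 2 libraries, any gene higher in replicate 2 has the same direction as these markers, and their part in the members' values was not tested. Adipocyte markers were high in both libraries. The 5 of them summed to 1964 TPM in replicate 1 and 1838 TPM in replicate 2, beside 1427 and 1671 TPM for the 5 chromaffin cell markers. The part of fat in the members' levels was not tested.

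Most members were expressed at a moderate level. At least 1 TPM in both libraries was reached by 33 of the 50 members, against 11526 of 22015 nuclear protein-coding genes (52.4%). The median of the members' mean TPM was 4.10, beside 1.65 over all nuclear protein-coding genes. Of the other 17 members, 16 were under 1 TPM in both libraries and Abcc2 reached 1 TPM in replicate 2 alone. Abca12, Abca15 and Abca16 had 0 counts in both libraries in the gene table. In the second file Abca12 had 4 counts in replicate 1 and 9 in replicate 2, and Abca15 and Abca16 were again at 0, which means not detected at this depth. The whole family summed to 1102 TPM in replicate 1 and 766 TPM in replicate 2 (934 ± 237, SD, n = 2), or 0.355% and 0.330% of the TPM of nuclear protein-coding genes.

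Abcb1b, a drug and steroid efflux pump of the plasma membrane, held most of that sum. It had 726 TPM in replicate 1 and 471 TPM in replicate 2 (598 ± 180, SD, n = 2), from 75602 and 49294 expected counts. By mean TPM it ranked 29 among all nuclear protein-coding genes, and it took 65.9% of the family's TPM in replicate 1 and 61.5% in replicate 2. The next member, Abca1, ranked 1224, and Abcb1b exceeded it 16.2-fold in replicate 1 and 13.7-fold in replicate 2. Without Abcb1b the family summed to 376 TPM in replicate 1 and 295 TPM in replicate 2. The Abcb1b gene lies on the plus strand at chr5:8798147-8866315 (mm10, GENCODE M21). It is overlapped by 2 annotated genes, 1 of them on the other strand, and neither is annotated as protein-coding.

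**Figure D1:**
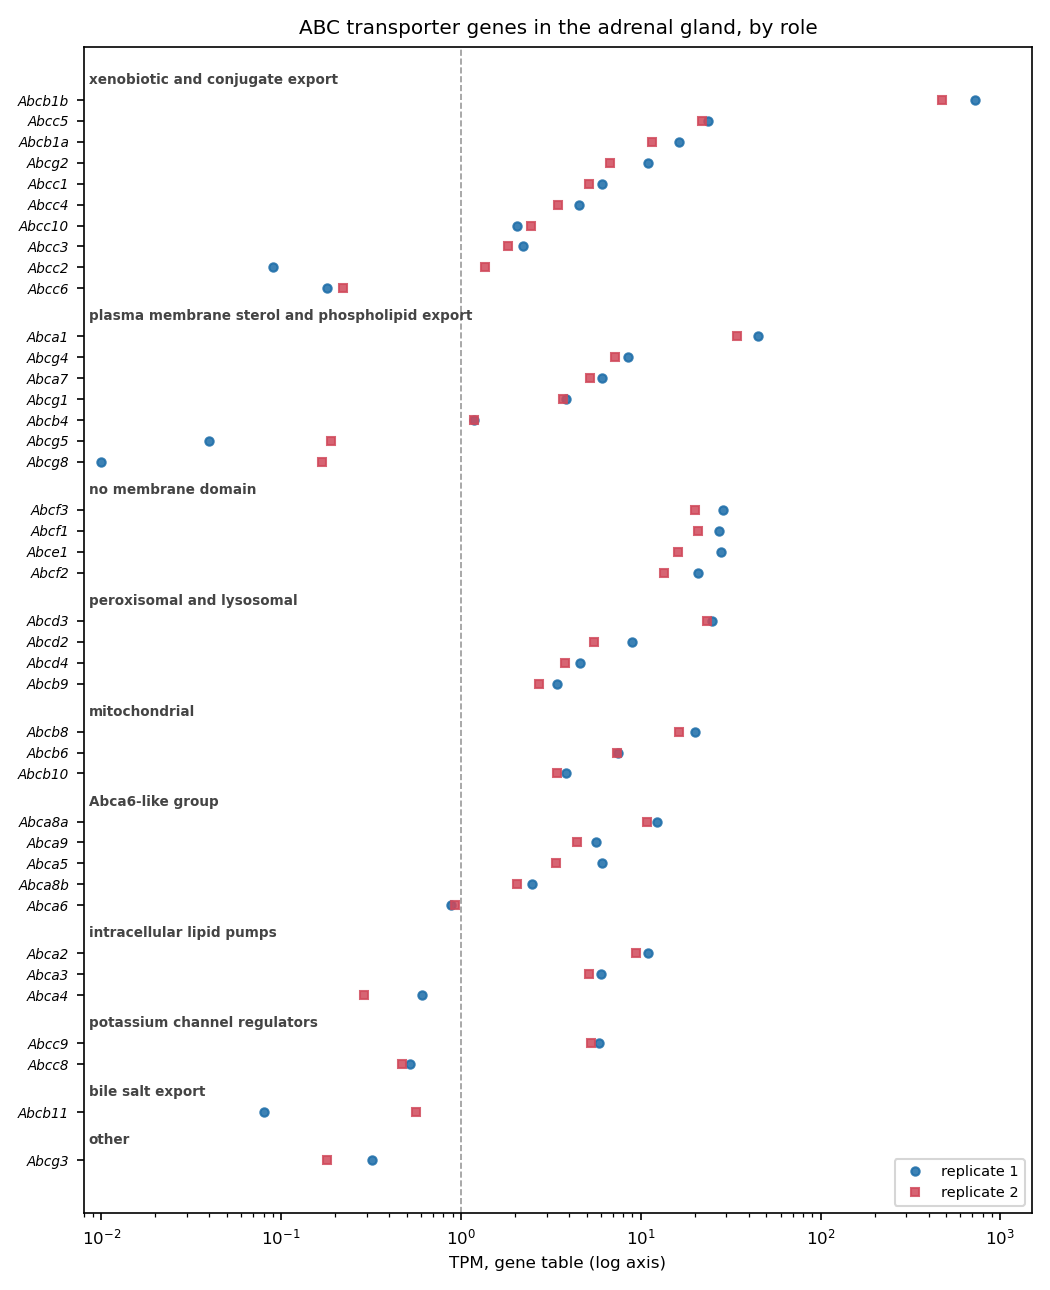
TPM in each library (log axis) for 40 members at 0.05 TPM or more in at least 1 library, grouped by role, with circles for replicate 1, squares for replicate 2 and a dashed line at 1 TPM. Abcb1b stands alone at 726 and 471 TPM, most other members lie between 1 and 45 TPM, and Abcc2, Abcb11, Abcg5 and Abcg8 are the members whose square lies far right of the circle.

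Abcb1b sits between its nearest relatives. Its neighbours on the same strand are Abcb1a, the other mouse P-glycoprotein gene, which ends 49572 bases upstream, and Abcb4, a phosphatidylcholine flippase of the liver canaliculus, which starts 27402 bases downstream. Abcb1a had 16.4 TPM in replicate 1 and 11.5 TPM in replicate 2 (14.0 ± 3.49, SD, n = 2). Abcb4 had 1.18 TPM in each library, from 153 and 165 counts. The level of Abcb1b was thus 44.2 and 41.0 times that of Abcb1a, and 615 and 399 times that of Abcb4, in replicates 1 and 2. In the second file it was 43.8 and 30.5 times that of Abcb1a, and 447 and 255 times that of Abcb4.

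These 3 genes share coding sequence, which bears on how reads are divided among them. Each leading transcript has 3828 coding bases, and an alignment gave 87.7% identity between Abcb1b and Abcb1a, 73.7% between Abcb1b and Abcb4, and 74.9% between Abcb1a and Abcb4. The longest identical run was 338 bases between Abcb1b and Abcb1a and 98 bases between Abcb1b and Abcb4. Of all windows of 50 coding bases in Abcb1b, 18.0% recur exactly in Abcb1a and 1.55% in Abcb4, so most windows of that length differ between the genes. The gap-free coding window of 60 bases that differs most among them is shown because it is where a read names its gene most clearly. It starts at coding base 1003 of Abcb1b, and its letters differ from Abcb1a at 21 positions and from Abcb4 at 23. Capitals mark, in the first line, bases of Abcb1b that differ from Abcb1a, and in the other lines bases that differ from Abcb1b.

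Abcb1b-201: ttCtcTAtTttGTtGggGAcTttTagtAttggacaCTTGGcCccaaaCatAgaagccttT
Abcb1a-201: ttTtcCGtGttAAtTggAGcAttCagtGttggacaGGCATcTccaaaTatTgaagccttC
Abcb4-201: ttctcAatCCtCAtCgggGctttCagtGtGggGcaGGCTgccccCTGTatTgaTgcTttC

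The split between the P-glycoprotein genes was close to the same in both quantifications. Abcb1b took 97.8% of the summed TPM of Abcb1a and Abcb1b in replicate 1 and 97.6% in replicate 2. In the second transcript file, which has another column layout (that of kallisto), the share was 97.8% in replicate 1 and 96.8% in replicate 2. Both quantifications rest on the same libraries. The expected counts of Abcb1b, Abcb1a and Abcb4 are among those of 9 members that are not whole numbers (within 0.01), so some of their reads were shared out between genes by the authors' program.

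In the second file Abcb1b had 1195 TPM in replicate 1 and 990 TPM in replicate 2, from 77531 and 50750 counts. The division among its transcripts also differed between the files. Abcb1b-201, the full-length coding transcript of 28 exons, led in both libraries and both files, with 474 TPM in replicate 1 and 271 TPM in replicate 2 in the first file. Abcb1b-206, a coding fragment of 613 bases, had 120 and 89.2 TPM, and Abcb1b-203, a transcript of 690 bases annotated as a target of nonsense-mediated decay, had 118 and 88.2 TPM, in replicates 1 and 2. Abcb1b-208, of the same class, had 0 TPM in both libraries in the first file, but 56.2 TPM in replicate 1 and 60.9 TPM in replicate 2 in the second. By expected counts Abcb1b-203 is small: 2460 counts in replicate 1 and 2025 in replicate 2, or 3.25% and 4.11% of the gene's counts, against 16.2% and 18.7% of its TPM. A short transcript needs few reads for a high TPM, so the 2 scales give different pictures of the same reads.

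Both decay-class transcripts lack exon 5 of Abcb1b-201, a coding exon of 58 bases at chr5:8810558-8810615 (mm10, plus strand). Its length leaves a remainder of 1 after division by 3, so the reading frame shifts where it is skipped. The exon is shown in capitals with 30 bases of the neighbouring exons on either side, and the join without it follows. These transcripts also differ from Abcb1b-201 elsewhere, with 6 exons in Abcb1b-203 and 22 in Abcb1b-208 against 28. Reads over the join were not examined.

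Abcb1b-201: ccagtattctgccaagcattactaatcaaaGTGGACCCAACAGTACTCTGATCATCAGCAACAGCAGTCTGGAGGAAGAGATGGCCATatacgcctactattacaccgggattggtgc
Abcb1b-203 and Abcb1b-208: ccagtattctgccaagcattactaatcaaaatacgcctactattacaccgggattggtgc

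**Figure D2:**
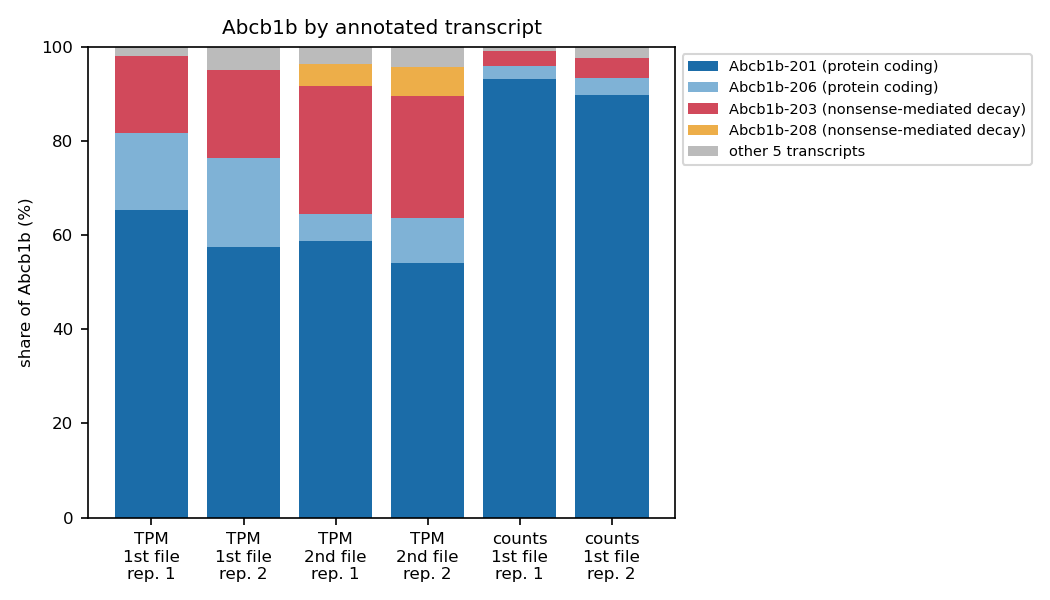
Share of Abcb1b (%) in each annotated transcript, from TPM of both transcript files and from expected counts of the first, with replicate 1 left of replicate 2 in each pair. Abcb1b-203 takes 16.2% and 18.7% of TPM in the first file but 3.25% and 4.11% of counts, and Abcb1b-208 appears only in the second file.

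Among the other drug and conjugate exporters, Abcc5, an organic anion and cyclic nucleotide pump, was next, with 23.6 TPM in replicate 1 and 22.1 TPM in replicate 2. Abcg2, the breast cancer resistance protein, had 11.02 TPM in replicate 1 and 6.79 TPM in replicate 2. Abcc1, the multidrug resistance protein that exports glutathione conjugates, had 6.08 and 5.18 TPM, and Abcc4, which exports cyclic nucleotides and prostaglandins, had 4.55 and 3.45 TPM. Abcc10 had 2.05 TPM in replicate 1 and 2.47 TPM in replicate 2 and overlaps the coding gene Dlk2, so its reads are uncertain. Abcc3, a basolateral conjugate pump, had 2.22 and 1.82 TPM. In all, 8 of 11 members with this role reached 1 TPM in both libraries, and they summed to 792 TPM in replicate 1 and 526 TPM in replicate 2.

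Of the 7 exporters of sterols and phospholipids at the plasma membrane, 5 reached 1 TPM in both libraries, led by Abca1. Abca1, which loads cellular cholesterol and phospholipid onto apolipoprotein A-I, had 44.8 TPM in replicate 1 and 34.5 TPM in replicate 2 (39.7 ± 7.28, SD, n = 2), from 16085 and 13370 counts. Abcg4, which moves sterols to lipoprotein particles and is best known from brain, had 8.52 TPM in replicate 1 and 7.2 TPM in replicate 2. Its close relative Abcg1 had 3.83 and 3.69 TPM. Abcg4 was thus above Abcg1 in both libraries, 2.22-fold in replicate 1 and 1.95-fold in replicate 2, and Abca1 exceeded Abcg1 11.7-fold and 9.36-fold. Abca7, a phospholipid exporter similar to Abca1, had 6.09 TPM in replicate 1 and 5.20 TPM in replicate 2. The obligate partners Abcg5 and Abcg8, which export sterols into bile and intestine, stayed at or under 0.19 TPM.

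The promoter windows of the highest members, Abcb1b and Abca1, are shown to place simple promoter letters beside their levels. They run from 250 bases before to 50 after the RefSeq start (GRCm38.p6), Abcb1b at chr5:8797897-8798196 on the plus strand and Abca1 at chr4:53159846-53160145 on the minus strand. Capitals mark 2 textbook promoter motifs, the GC box (GGGCGG) and the motif TATAAA.

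Abcb1b: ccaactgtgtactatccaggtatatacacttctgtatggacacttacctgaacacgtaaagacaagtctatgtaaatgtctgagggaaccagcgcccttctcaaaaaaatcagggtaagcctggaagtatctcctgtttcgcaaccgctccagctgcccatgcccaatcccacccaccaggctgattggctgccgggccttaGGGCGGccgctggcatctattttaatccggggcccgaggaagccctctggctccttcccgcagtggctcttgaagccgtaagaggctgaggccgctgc
Abca1: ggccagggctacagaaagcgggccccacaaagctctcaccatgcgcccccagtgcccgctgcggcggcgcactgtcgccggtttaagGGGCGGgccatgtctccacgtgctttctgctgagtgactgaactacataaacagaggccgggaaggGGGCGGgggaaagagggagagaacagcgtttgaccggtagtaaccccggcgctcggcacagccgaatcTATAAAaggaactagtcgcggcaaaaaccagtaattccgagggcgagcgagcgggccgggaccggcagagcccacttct

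Abcb1b holds 1 GGGCGG, 48 bases before the start, and no TATAAA, while Abca1 holds GGGCGG at 163 and 97 bases and TATAAA at 29 bases before the start. Promoter windows were found for 38 of the 50 members (45 sequences). On either strand, GGGCGG occurred in 21 of these 45 sequences (46.7%) and in 35.7% of all 32851 mouse promoter windows, and TATAAA in 15.6% and 13.6%. CAAGGTCA, the letters bound by the steroidogenic factor Nr5a1, occurred in 2 member windows (4.44%), of Abcc10 and Abcg2, against 1.56% of all windows. TGACGTCA, a cyclic AMP response element, occurred in 2 member windows (4.44%), of Abce1 and Abcg2, against 1.79% of all. Abcg2 has several windows, and these motifs lie in different ones, CAAGGTCA in chr6:58584283-58584582 and TGACGTCA in chr6:58640296-58640595. Exact copies of the liver X receptor type repeat, 2 AGGTCA in the same direction spaced by any 4 bases, occurred in no member window. Only 5 of all 32851 windows (0.0152%) held one, so 45 member windows are too few for their absence to mean anything. Looser forms of the repeat were not searched for. These are matches of letters only, and they say nothing about binding.

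The 4 members without membrane domains were all expressed, at levels close to one another. Abcf3 had 28.8 TPM in replicate 1 and 20.2 TPM in replicate 2. Abcf1, which takes part in translation initiation, had 27.2 and 20.9 TPM. Abce1, which splits ribosomes into subunits for recycling, had 28.1 TPM in replicate 1 and 16.1 TPM in replicate 2, and Abcf2 had 20.9 and 13.5 TPM. The order among Abcf3, Abcf1 and Abce1 was not the same in both libraries, though Abcf3 was above Abce1 in each. Their means (24.5 ± 6.10, 24.0 ± 4.45 and 22.1 ± 8.44 TPM, SD, n = 2) differed by less than their SDs. These SDs take in the difference in TPM scale between the libraries, which all genes share, so they do not measure the spread of differences between genes.

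All 5 peroxisomal and lysosomal members passed 1 TPM in both libraries. Abcd3, a peroxisomal carrier of branched and dicarboxylic acyl-CoA, had 24.9 TPM in replicate 1 and 23.4 TPM in replicate 2. Abcd2, a peroxisomal carrier of fatty acyl-CoA, had 8.92 and 5.53 TPM. Abcd4, which exports cobalamin from lysosomes, had 4.60 and 3.79 TPM, and the lysosomal peptide carrier Abcb9 had 3.44 and 2.71 TPM.

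The 4 mitochondrial members were likewise all above 1 TPM. Abcb8 led with 20.2 TPM in replicate 1 and 16.3 TPM in replicate 2. Abcb6, linked to porphyrin transport, had 7.51 and 7.34 TPM. Abcb10, which takes part in haem synthesis, had 3.86 and 3.41 TPM, and it overlaps another annotated coding gene.

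Among the intracellular lipid pumps, Abca2 had 10.98 TPM in replicate 1 and 9.42 TPM in replicate 2. Abca3, the surfactant lipid pump of lung lamellar bodies, had 5.99 and 5.13 TPM. Abca17, whose start lies 882 bases from the start of Abca3 on the opposite strand, was at 0.02 and 0.01 TPM. The potassium channel regulator Abcc9 (SUR2) had 5.88 TPM in replicate 1 and 5.29 TPM in replicate 2, while Abcc8 (SUR1) had 0.52 and 0.47 TPM. By TPM, Abcc9 exceeded Abcc8 11.3-fold in both libraries, and in the second file 19.0-fold in replicate 1 and 9.13-fold in replicate 2. Of their pore subunits, Kcnj8 had 3.13 and 3.17 TPM and Kcnj11 had 0.26 and 0.84 TPM.

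The Abca6-like genes form a run on the minus strand of chromosome 11, in the order Abca8b, Abca8a, Abca9, Abca6 and Abca5, with gaps between neighbours of 4771 to 29789 bases. Their levels were unequal. Abca8a was highest, with 12.3 TPM in replicate 1 and 10.8 TPM in replicate 2, and Abca9 had 5.64 and 4.44 TPM. Abca5, a lysosomal and endosomal lipid carrier, had 6.10 TPM in replicate 1 and 3.38 TPM in replicate 2. Abca8b had 2.49 and 2.04 TPM, and Abca6 was under 1 TPM in both libraries, with 0.88 and 0.93 TPM. Abca5 and Abca9 change places between the libraries, and their means (4.74 ± 1.92 and 5.04 ± 0.849 TPM, SD, n = 2) differ by less than their SDs. Here too the SDs take in the difference in TPM scale between the libraries.

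**Figure D3:**
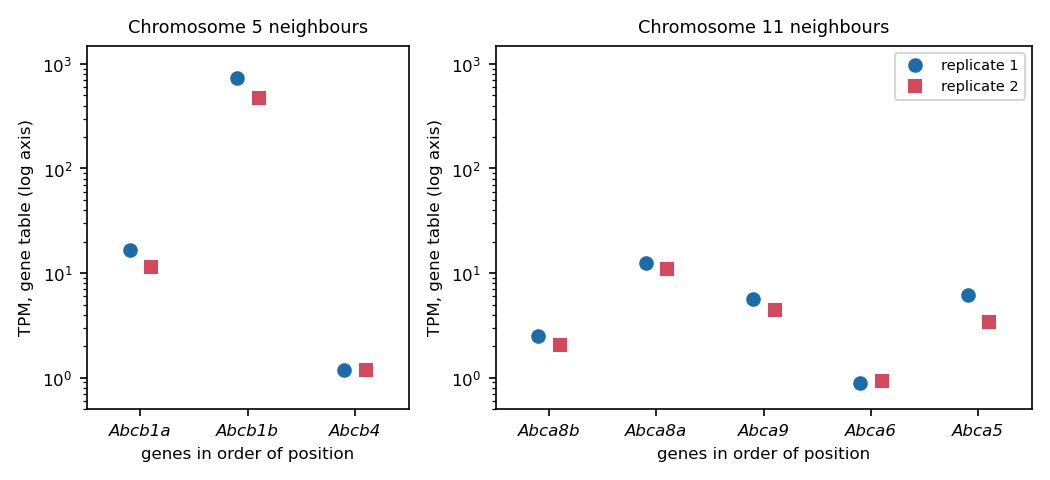
TPM (log axis) of neighbouring members in order of position, circles for replicate 1 and squares for replicate 2. On chromosome 5, Abcb1b at 726 and 471 TPM stands between Abcb1a at 16.4 and 11.5 TPM and Abcb4 at 1.18 TPM in each library, while the chromosome 11 genes lie between 0.88 and 12.3 TPM.

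The order of levels was nearly the same in the 2 libraries and in the 2 quantifications. Across the 50 members Spearman's rho of TPM was 0.983 between libraries and 0.992 between the gene table and the second file, where points share the library preparation and, between files, the reads. No member moved by over 10 places between the files, and the largest shift was 7 places. Of the 33 members at 1 TPM, 31 had a higher deposited TPM in replicate 1. The scale moves with this, as nuclear protein-coding genes held 310489 TPM in replicate 1 and 232397 TPM in replicate 2 of the fixed total of 1000000. Rescaled to nuclear protein-coding genes, the whole family summed to 3548 TPM in replicate 1 and 3298 TPM in replicate 2. Without Abcb1b it summed to 1211 TPM in replicate 1 and 1270 TPM in replicate 2.

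Counts scaled by TMM give the difference between the libraries on a common footing. A mean CPM (the share of a library's gene counts times 1000000) of at least 1 was reached by 37 members and 14780 genes, and these are compared as replicate 1 over replicate 2, with exact 95% intervals. These cover counting error alone, as reads lacking molecular identifiers need not stem from different molecules. Among these members 3 differed at least 2-fold, all higher in replicate 2 and 0 higher in replicate 1. All 3 were under a CPM of 1 in replicate 1, from 0.366 to 0.817, and entered the comparison through replicate 2, where they had a CPM from 1.89 to 3.45, and at a mean CPM of at least 5 none of the members compared differed 2-fold. Over all genes compared, 6.87% differed at least 2-fold, 1.74% higher in replicate 1 and 5.13% higher in replicate 2. Of the 13256 nuclear protein-coding genes compared, 217 were at least 2-fold higher in replicate 1 and 478 in replicate 2. Whether 3 of 37 members differs from these shares was not tested. The median log2 ratio was -0.17 over the 37 members, beside -0.01 over all genes compared, with 9 members above 0 and 28 below, beside 7222 above and 7558 below over all genes compared. This sign depends on the scale: with spike-in counts as the scale the members' median was 0.72 and that of all genes 0.88. A change of scale shifts every gene's log2 ratio by the same amount. The distance of the members' median from that of all genes (-0.16) is therefore the same on either scale by construction. In bulk tissue, fewer cells of a type and less RNA per cell cannot be told apart.

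The highest members differed little on the TMM scale. Abcb1b had a log2 ratio of 0.33 (ratio 1.26, interval 1.24 to 1.27), Abcb1a of 0.15 and Abca1 of -0.02 (ratio 0.985, interval 0.963 to 1.01). With spike-in counts as the scale these were 1.22, 1.04 and 0.87, beside a median of 0.88 over all genes compared. On the TMM scale, several marker lists had ratios of the same sign as Abcb1b. All 5 adrenal cortex markers had positive log2 ratios, with a median of 0.37 and sums of 14460 TPM in replicate 1 and 8075 TPM in replicate 2. So had all 4 stroma markers (median 0.44), all 5 macrophage markers (median 0.21) and all 4 endothelium markers (median 0.11). The part of these lists in the Abcb1b value was not tested. Among the 37, the highest ratio was that of Abca5, at 0.44 (1091 and 659 counts). Abce1 and Abcd2 followed with 0.34 each. On the other side, below the 3 members past 2-fold in size, came Abca6 with -0.75 (135 and 186 counts), Abcc10 with -0.69 (304 and 402 counts) and Abcg4 with -0.53 (735 and 871 counts). The 5 chromaffin cell markers also had negative log2 ratios, with a median of -0.52. Of the 5 adipocyte markers 3 had negative log2 ratios (median of the 5 -0.31), and Ucp1 was past 2-fold with 156 TPM in replicate 1 and 302 TPM in replicate 2. The part of these lists in the members' values was not tested.

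The 3 members past 2-fold were low genes. Abcb11, the bile salt export pump of hepatocytes, at chr2:69238282-69342616, had 13 counts in replicate 1 and 75 in replicate 2, or 0.08 and 0.56 TPM (log2 ratio -2.77, ratio 0.142, interval 0.0722 to 0.258). Abcc2, the canalicular conjugate pump, at chr19:43782192-43840740, had 23 counts in replicate 1 and 104 in replicate 2, or 0.09 and 1.37 TPM (log2 ratio -2.44, ratio 0.181, interval 0.110 to 0.287). Abcc8, the sulfonylurea receptor of islet beta cells, at chr7:46104523-46180033, had 29 counts in replicate 1 and 57 in replicate 2 (log2 ratio -1.25, ratio 0.417, interval 0.257 to 0.662), and on the spike-in scale its log2 ratio was -0.36. All 5 liver markers were at least 2-fold higher in replicate 2, Alb among them with 495 and 3865 counts. All 5 exocrine pancreas markers and all 4 islet markers were higher there too, Ins2 with 0 and 1007 counts, and Kcnj11, the channel subunit that pairs with Abcc8, had 27 and 51 counts. The part of these tissues' transcripts in the 3 values was not tested.

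For Abcc2 and Abcc8, TPM and counts did not give the same difference between the libraries. In replicate 2, Abcc2-201, the full-length coding transcript, had 82 of the gene's counts but 0.27 of its 1.37 TPM, and Abcc2-203, a retained-intron transcript of 607 bases, had 0.46 TPM from 9 counts. Abcc8 was lower in replicate 2 by TPM (0.52 in replicate 1 and 0.47 in replicate 2) although its counts were higher there, and in the second file its TPM was higher in replicate 2, with 0.509 in replicate 1 and 1.23 in replicate 2.

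Too low to be compared were 13 members, of which 5 had more counts in replicate 1, 5 had more in replicate 2 and 3 had 0 counts in both. Of the first kind, Abca4, a retinal lipid pump, had 40 counts in replicate 1 and 26 in replicate 2, and Abcg3 had 32 and 20. Of the second kind, Abcc6, a liver and kidney transporter linked to mineralisation, had 19 counts in replicate 1 and 42 in replicate 2. Abcg5 had 1 count in replicate 1 and 13 in replicate 2, which is 15.9 times as much in replicate 2 with an interval of 2.38 to 675. Abcg8 had 1 and 18 counts, 22.0 times as much with an interval of 3.47 to 916. Abcg5 and Abcg8 overlap over 6709 bases on opposite strands, so reads in that stretch are uncertain.

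**Figure D4:**
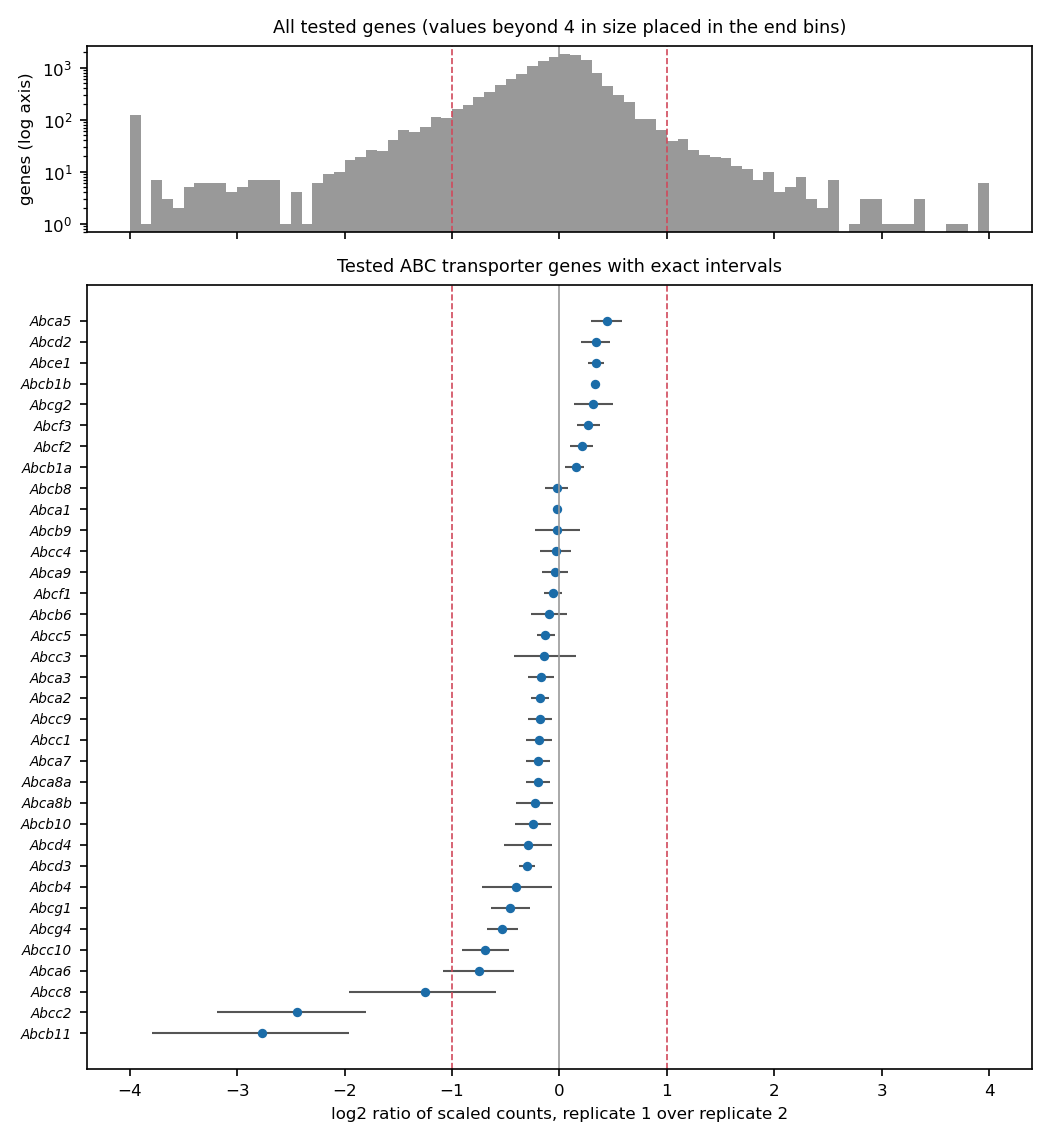
Log2 ratio of TMM-scaled counts, replicate 1 over replicate 2, over all 14780 genes compared (top, number of genes on a log axis) and for 35 of the 37 ABC members compared (bottom, points with exact 95% counting intervals, dashed lines at 2-fold). Abcb11 at -2.77, Abcc2 at -2.44 and Abcc8 at -1.25 lie left of the lower line, and no member lies right of the upper one.

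Most of the members' TPM fell on coding transcripts, less so in the second file. Transcripts annotated as protein-coding held 83.0% of member TPM in replicate 1 and 79.0% in replicate 2 in the first file, and 69.9% on average in the second. By expected counts the share was 95%. Of the 33 members at 1 TPM, the leading transcript by mean TPM was coding for 33 in the first file and for 31 in the second, and it was the same transcript in both files for 29. In 26 of the 33 members it held at least 50% of the gene's TPM. At the other end, coding transcripts held 49.2% of Abcc5 TPM in replicate 1 and 39.5% in replicate 2. There Abcc5-208, a retained-intron transcript, had 4.02 and 4.10 TPM, beside 6.04 and 4.34 TPM for the leading coding transcript Abcc5-202.

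By mean TPM over the libraries, the leading transcript differed between files for Abca7, Abca8b, Abcc3 and Abcc4. For Abcc4 the files differed in both libraries. The first file gave Abcc4-201, a coding transcript, 4.24 TPM in replicate 1 and 2.80 TPM in replicate 2, and the noncoding Abcc4-203 0.12 and 0.65 TPM. The second file gave Abcc4-201 2.94 and 2.79 TPM and Abcc4-203 3.12 and 5.06 TPM. For Abca8b the files differed in replicate 1, where Abca8b-201 led in the first file and Abca8b-202 in the second, both coding. Abcb8 and Abca3 had the same leader by mean TPM, but the files differed within 1 library, again between coding transcripts. In replicate 2, Abcb8-203 led in the first file (29.8% of the gene's TPM) and Abcb8-201 in the second (73.3%). In replicate 1, Abca3-202 led in the first file (38.8%) and Abca3-201 in the second (65.4%). For Abcc3 and Abca7 the files had the same leading transcript within each library, and the leader differed between the libraries. By TPM, Abcc3 was led by the coding Abcc3-206 in replicate 1 and by the noncoding Abcc3-203, of 567 bases, in replicate 2. By counts Abcc3-206 led there too. In replicate 2 it had 141 counts in the first file and 152 in the second, against 16 and 11 for Abcc3-203. Abca7 was led by Abca7-203 in replicate 1 and by Abca7-202 in replicate 2, both coding.

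Genes that work with the transporters were mostly expressed. Of 18 matched partners (of 19 listed), 16 reached 1 TPM in both libraries. At least 2-fold differences were seen for 3 of them, Apoa1, Kcnj11 and Lcat, all higher in replicate 2, against 5.13% of all genes compared; Apoa1 is also one of the 5 liver markers. Scarb1, the high-density lipoprotein receptor that imports cholesteryl esters, had 1405 TPM in replicate 1 and 655 TPM in replicate 2. Apoe, an acceptor of exported lipid, had 345 and 285 TPM. The antigen peptide transporter genes Tap1 and Tap2, ABC proteins with other symbols, had 3.76 and 4.43 TPM, and 14.2 and 10.4 TPM.

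Of 15 listed transcriptional regulators, 13 reached 1 TPM in both libraries. The liver X receptors, which induce Abca1 and Abcg1, were both present: Nr1h2 had 29.7 TPM in replicate 1 and 23.0 TPM in replicate 2, and Nr1h3 had 10.37 and 11.02 TPM. The bile acid receptor Nr1h4, which induces Abcb11, had 5.08 and 5.24 TPM. The xenobiotic receptor Nr1i2 stayed at 0.01 and 0.03 TPM. Past 2-fold were Nr5a1, the steroidogenic factor, higher in replicate 1 with 160 TPM against 52.6 TPM in replicate 2 (log2 ratio 1.18), and Ppara, higher in replicate 2, with 7.22 TPM in replicate 1 and 10.1 TPM in replicate 2 (log2 ratio -1.12).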

How the data were processed

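For each library there were a table of genes and 2 tables of transcripts, on mm10 and GENCODE M21 per the labels' readme text. Per the file headers, the gene table and the first transcript file have the column layout of RSEM. Their expected counts were made by the authors from reads aligned to the transcriptome, and their TPM values were deposited on a scale of 1000000 that takes in spike-ins and tRNA. The second transcript file, in the column layout of kallisto per the file headers, holds estimated counts and TPM deposited per transcript. Program names, their versions and the use of strand were not given in the sources used here. Genes that overlap another on the opposite strand (18 members) are therefore uncertain. Of 81881 entries in a gene table, 26345 name no gene and were left out.

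Gene counts were 35511291 and 30169338 in the gene tables and 35062188 and 27747344 in the second files, for replicates 1 and 2, with 0.843% and 1.50% on spike-ins. Nothing in the files shows separate cultures or animals beyond the conflicting labels. Expected counts were rounded to whole numbers, scaled by TMM (edgeR 4.0.16 in R 4.3.3, factors 1.019 and 0.9817) and compared with 0.5 added, as replicate 1 over replicate 2. Exact 95% intervals are for the ratio of 2 counts. A gene was called at a 2-fold ratio with a mean CPM of at least 1, over all genes, and such a rule keeps low genes that pass through the library where they are high. The ratio step was tested on simulated data. DESeq2 1.42.0 size factors served as an alternative. Other steps used Python 3.11.15 with pandas 2.3.3, numpy 2.4.6, scipy 1.17.1, Biopython 1.88 (coding alignments) and matplotlib 3.10.9. Promoters came from RefSeq on GRCm38.p6. Exons and coding sequences came from GENCODE M21.

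Values are given for members with a mean TPM of at least 1, members past 2-fold, members whose leading transcript or rank (by over 10 places) differed between files, and Abcb1a, Abcb1b and Abcb4; others are given as counts or named as low. Members and lists were chosen with earlier results of these data known. Alternatives were other scalings, filters, added counts, thresholds, TPM columns, the second file and each replicate left out. Of the members, 2 are included in counts and sums but are not reported here by name.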

Additional observations from a re-analysis of the deposited data

How the results depend on the processing

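No paired analysis was possible because the series holds 1 group. The family's summed TPM (934) was 1742 in the second file, 3423 rescaled over nuclear protein-coding genes, 336 without Abcb1b and 766 to 1102 with a replicate left out. Abcb1b (598 TPM) was 1092 in the second file, 2182 rescaled and 471 to 726 with a replicate left out. Its share beside Abcb1a (97.7%) was 97.5% by posterior mean TPM, 97.3% in the second file and 97.6% to 97.8% with a replicate left out. The coding share of TPM (81.0%) was 69.9% in the second file, 95% by expected counts, 84.1% without Abcb1b and 79.0% to 83.0% with a replicate left out. The alternatives without Abcb1b and by expected counts were chosen after seeing the data. Members at 1 TPM numbered 33 to 34, and those led by the same transcript in both files 30 to 31, with a replicate left out. Members at least 2-fold apart (3) numbered 5 at 1.5-fold (background 17.3%), 11 on the spike-in scale (9 higher in replicate 1, 2 higher in replicate 2, with 37.3% of all genes called), 8 with no filter (background 28.9%) and 0 at a mean CPM of at least 5 (background 3.14%). The median log2 ratio of members (-0.17) was -0.12 by total counts, 0.72 on the spike-in scale, -0.11 with no filter, and -0.16 at a mean CPM of at least 5 and in the second file; the spike-in scale moved the median of all genes to 0.88. On that scale Abcc8 fell below 2-fold and 9 members passed it, Abcb1b and Abcb1a among them. The cause was not tested, and no single member's ratio past 2-fold changed sign. Counts of 1 to 104 limit Abcb11, Abcc2, Abcc8, Abcg5 and Abcg8, and 2 libraries limit every spread.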

Other observations

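The deposited gene tables give an interval for the TPM of each gene. The deposited TPM lay outside its own interval for 8 members in replicate 1, 7 of them below it, and for 10 members in replicate 2, all 10 below it. Over all nuclear protein-coding genes the same was seen for 29.3% in replicate 1 and 27.8% in replicate 2. The member above its interval was Abcb1b in replicate 1, with 726 TPM against an interval of 699 to 725. Members of the A subfamily ranged most in coding length, from 4860 to 15102 bases, against 1938 to 2019 bases for the 6 members of the G subfamily.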
